A study of Mus musculus with 4 samples.

Results

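The cyclin-dependent kinase inhibitors studied here are the 3 Cip/Kip genes Cdkn1a, Cdkn1b and Cdkn1c, the Ink4 genes Cdkn2c and Cdkn2d, and Cdkn3. They were taken by name from the symbols that accompany the deposited expression values and were followed by Entrez identifier into the count table, where all 6 were found among 26286 genes. The other Ink4 genes, Cdkn2a and Cdkn2b, are given for comparison. The series compared LSK cells of mouse bone marrow, 2 libraries labelled Hhex-deleted and 2 wild-type libraries. LSK cells lack lineage markers, carry Sca-1 and Kit, and include blood stem cells and multipotent progenitors. Both groups are labelled C57BL/6, the first with genotype Hhex deletion and the second with genotype wild-type. The allele, the means of deletion, the age of the mice and the number of mice behind a library are not stated in the labels. The homeobox gene Hhex encodes a transcription factor, and the title of the series names Cdkn2a among what it represses.

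Cyclin-dependent kinases drive the cell cycle when bound to cyclins. Ink4 proteins bind Cdk4 and Cdk6 and keep D-type cyclins off them. The Cip/Kip proteins p21 (Cdkn1a), p27 (Cdkn1b) and p57 (Cdkn1c) bind kinase and cyclin together and restrain above all the complexes of Cdk2. Cdkn3 works differently: it encodes a phosphatase that removes the activating phosphate from Cdk2. In blood stem cells, p57 and p27 are known for holding cells in quiescence, and p18 (Cdkn2c) for limiting self-renewal.

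Total counts lay between 27871827 and 29501591 per library. CPM are counts scaled to library size with TMM factors, and RPKM are the same values per kilobase of gene. Hhex itself stood at 179 and 188 CPM in the libraries labelled Hhex-deleted, against 127 and 115 in wild-type. Counts per gene include exons outside any deleted part, so this does not check the deletion, and groups are named as labelled. Kit stood at 605 and 698 CPM, against 566 and 601 in wild-type. Ly6a, which encodes Sca-1, stood at 20.7 and 42.5 CPM, against 25.4 CPM in each wild-type library. Cd48, listed with them among the sort gate genes, had 212 and 232 CPM, against 148 and 139 in wild-type. Its test is given with Cdkn1c. Labelled Hhex-deleted replicate 1 stands apart in sex markers, with 2662 CPM of Xist and 0.343 CPM of the Y-linked Ddx3y, where the other 3 libraries had 1.89 to 2.66 and 124 to 138 CPM. Both libraries numbered 1 also stand apart in immediate early genes, as described with Cdkn1a. Whether the 2 libraries of a group came from separate mice is not given, so p-values measure the spread between these libraries, and in bulk RNA fewer cells of a type cannot be told apart from less RNA per cell.

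Promoter sequence is shown for Cdkn1a, which differed most of the members between the wild-type libraries, and for Cdkn3, which is set beside the genes of mitosis. RefSeq windows from 250 bases before to 50 bases after a transcript start were matched for 5 of the 6 members, all but Cdkn1c, on GRCm38.p6. Cdkn1a has 2 starts on the plus strand, at chr17:29090729-29091028 and chr17:29093519-29093818, and gene counts do not separate their transcripts. In the first window capitals mark matches to the p53 decamer, the unit of p53 response elements, and in the second the GC box GGGCGG, both searched on either strand.
Cdkn1a start 1: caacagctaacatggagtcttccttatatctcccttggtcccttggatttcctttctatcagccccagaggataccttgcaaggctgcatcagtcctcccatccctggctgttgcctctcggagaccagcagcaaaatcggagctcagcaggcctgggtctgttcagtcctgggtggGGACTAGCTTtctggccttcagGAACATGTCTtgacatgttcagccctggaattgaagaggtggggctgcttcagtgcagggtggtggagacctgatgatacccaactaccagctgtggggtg
Cdkn1a start 2: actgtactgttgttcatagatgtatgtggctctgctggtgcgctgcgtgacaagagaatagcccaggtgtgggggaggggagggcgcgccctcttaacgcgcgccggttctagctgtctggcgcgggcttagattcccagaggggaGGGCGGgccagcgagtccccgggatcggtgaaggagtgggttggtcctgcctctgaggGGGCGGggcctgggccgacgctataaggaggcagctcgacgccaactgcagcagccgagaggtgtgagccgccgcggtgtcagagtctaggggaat
Of the 23 windows of the p53 pathway genes described with Cdkn1a, 10 held the decamer. In the windows printed it occurred 73 and 51 bases before the first start and not within the second window, and 8.36% of all 32851 windows held it. GGGCGG occurred 104 and 46 bases before the second start, and 35.7% of all windows held it. The Cdkn3 window lies at chr14:46760291-46760590, on the plus strand. Here capitals mark CCAAT and TTTGAA, on either strand, the second being the core of the element known to time genes to G2 and M phase.
Cdkn3: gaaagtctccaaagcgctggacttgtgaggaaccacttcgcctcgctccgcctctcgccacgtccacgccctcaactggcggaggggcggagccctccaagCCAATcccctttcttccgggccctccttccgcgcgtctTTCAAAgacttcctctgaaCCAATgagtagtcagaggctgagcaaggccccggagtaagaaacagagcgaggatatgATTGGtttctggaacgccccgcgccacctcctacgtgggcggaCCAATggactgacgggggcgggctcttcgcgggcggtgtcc
CCAAT occurred at 4 places and TTTGAA at 1 place, 111 bases before the start. At least 2 CCAAT matches together with TTTGAA were found in 2.09% of all windows, and in 10 of the 21 windows of the G2 and M phase genes described with Cdkn3. A match describes the letters and is not a site shown to be bound.

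None of the 6 inhibitors passed the test between groups. edgeR's quasi-likelihood test, with Benjamini-Hochberg adjustment over 14912 genes and a threshold of 0.05, called 0 of 6 members, where 2.6% of all tested genes were called. At an unadjusted p under 0.05 there were 0 members, against 15.8% of all tested genes. DESeq2 also called 0, where it called 6.63% of all genes, and so did limma-voom, where the share was 2.25%. Neither gave a member an unadjusted p under 0.05, where 13.9% of genes had one by DESeq2 and 15.5% by limma-voom. Other settings of the test likewise called 0 members. The share of all genes called was 2.41% with RLE scaling, 2.15% with upper quartile scaling, 2.85% with no low-count filter, 0.316% with limma on the deposited values and 2.11% with the replicate number as a block, where 19.3% of genes, and 1 member, Cdkn1c, had an unadjusted p under 0.05. With 1 library left out it was 3.91% (labelled Hhex-deleted replicate 1), 2.38% (its replicate 2), 1.7% (wild-type replicate 1) and 0.81% (its replicate 2). A group left with 1 library in such a fit is assumed to vary like the other group. All 6 passed the filter on low counts. The members' log2 fold changes, labelled Hhex-deleted over wild-type, had a median of -0.0053, beside -0.0055 over all tested genes. The groups did not overlap for 1 member, Cdkn1c, where 45.5% of all tested genes had groups that did not overlap.

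**Figure D1:**
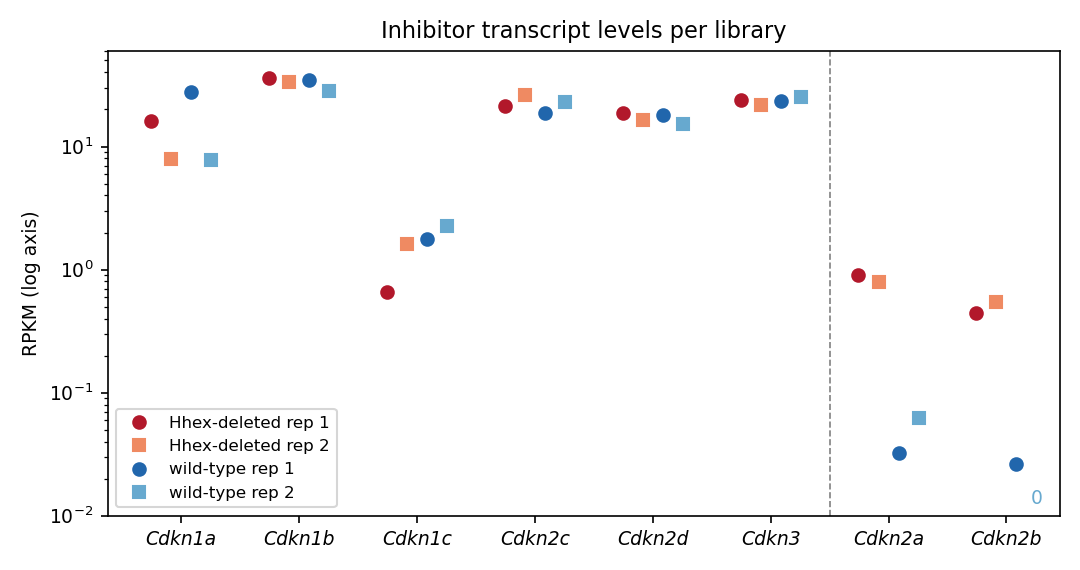
RPKM (counts per kilobase of gene, scaled to library size, log axis) of the 6 inhibitors and, right of the dashed line, Cdkn2a and Cdkn2b, with 1 point per library, red and orange for libraries labelled Hhex-deleted and blue for wild-type. Cdkn1b is highest, Cdkn1c lowest of the 6 members, and Cdkn1a differs most between the wild-type libraries; a 0 marks the library without a Cdkn2b read.

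In level per gene length Cdkn1b was the most abundant of the 6 members in both groups, with 34.8 ± 2.09 RPKM in libraries labelled Hhex-deleted and 31.5 ± 4.64 RPKM in wild-type (SD, n = 2 each). Cdkn2c and Cdkn3 followed, with 23.8 ± 3.38 and 22.9 ± 1.57 RPKM in labelled Hhex-deleted, whose ranges overlapped, and 20.8 ± 3.12 and 24.5 ± 1.21 RPKM in wild-type, whose ranges did not (SD, n = 2). Cdkn2d had 17.7 ± 1.57 RPKM in labelled Hhex-deleted and 16.6 ± 1.78 RPKM in wild-type. In wild-type the ranges of Cdkn2c and Cdkn1a overlapped, as did those of Cdkn1a and Cdkn2d, and the Cdkn1a range there, 7.72 to 27.7 RPKM, also spanned that of Cdkn3. The place of Cdkn1a relative to Cdkn3, Cdkn2c and Cdkn2d in wild-type is therefore not resolved. Cdkn1c was the lowest member in both groups. Its range in libraries labelled Hhex-deleted, 0.653 to 1.61 RPKM, overlapped that of Cdkn2a there, 0.788 to 0.905 RPKM, while in wild-type it stood at 1.78 to 2.25 RPKM and Cdkn2a at 0.0321 to 0.0616 RPKM.

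Among the Cip/Kip genes Cdkn1a encodes p21, which arrests cells after DNA damage as a target of p53 and also responds to growth signals. It had 32.6 and 16.0 CPM in libraries labelled Hhex-deleted, against 56.1 and 15.6 in wild-type. The lowest and the highest value were both wild-type, and the groups overlapped. The fitted log2 fold change was -0.56 ± 0.91 (SE), with a 95% interval of -3.80 to 2.68 and an edgeR adjusted p of 0.87. Without wild-type replicate 1 it was 0.64, the opposite sign, and without wild-type replicate 2 it was -1.20.

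Cdkn1a differed within groups far beyond counting error. Replicate 1 held 2.04 times the level of replicate 2 in libraries labelled Hhex-deleted (exact binomial 95% interval 1.82 to 2.28) and 3.59 times in wild-type (3.23 to 3.996), intervals that cover counting error only. A larger gap between replicates was found in 4.51% of tested genes in labelled Hhex-deleted and in 1.1% in wild-type. Set against the wild-type library of the same number, Cdkn1a stood at a log2 difference of -0.78 in labelled Hhex-deleted replicate 1 and of 0.03 in replicate 2.

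The same 2 libraries were high in immediate early genes, the transcripts that cells raise within minutes of a stimulus. The list of 22 genes used here also holds the heat shock genes Hspa1a, Hspa1b and Dnajb1. Of the 22 genes, 20 were higher in replicate 1 than in replicate 2 in labelled Hhex-deleted, with a median log2 difference of 2.36. In wild-type 20 were, with a median of 3.09. Their summed level was 4669 and 934 CPM in labelled Hhex-deleted, against 7293 and 991 in wild-type. Fos, a subunit of the AP-1 factor, had 545 and 60.1 CPM, against 865 and 89.3 in wild-type. Egr1, a zinc finger factor, had 472 and 14.7 CPM, against 929 and 13.9 in wild-type. Wild-type replicate 1 was highest and labelled Hhex-deleted replicate 1 next in this sum and in Cdkn1a alike, while the order of the 2 lowest libraries differed. The part of these genes in the Cdkn1a values was not tested. Between groups 0 of the 22 passed edgeR's test, with 0 at an unadjusted p under 0.05, 0 called by DESeq2 and 0 by limma-voom. With the replicate number as a block edgeR called 2 of them lower, Fos (log2 fold change -0.62, adjusted p = 0.0402) and Fosb (-0.78, adjusted p = 0.0321). Without the block the lowest unadjusted p-values were those of the heat shock genes Hspa1a (log2 fold change -1.72 ± 0.87 SE) and Hspa1b (-1.61 ± 1.00 SE).

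The genes of the p53 pathway did not form such a pattern as a list. Of 22 genes, 13 were higher in replicate 1 than in replicate 2 in labelled Hhex-deleted, with a median log2 difference of 0.05, and 12 in wild-type, also with a median of 0.05. Mdm2, the p53 target that degrades p53, stood at 99.3 and 89.6 CPM in labelled Hhex-deleted, against 100.7 and 90.5 in wild-type. Trp53 itself stood at 199 and 188 CPM, against 181 and 182 in wild-type. Some p53 targets were nevertheless higher in replicate 1 of both groups, among them, named here after their values were seen, Plk2, Btg2, Pmaip1 and Gadd45a, of which Btg2 is also in the immediate early list. Plk2, a kinase of the polo family, had 15.004 and 1.96 CPM in labelled Hhex-deleted, against 13.9 and 1.12 in wild-type. Pmaip1, which encodes the cell death protein Noxa, had 8.12 and 3.25 CPM in labelled Hhex-deleted, against 14.2 and 3.40 in wild-type. Like Cdkn1a, Pmaip1 was highest in wild-type replicate 1 and next highest in labelled Hhex-deleted replicate 1. Gadd45a, a growth arrest gene induced by DNA damage, had 30.7 and 17.6 CPM in labelled Hhex-deleted, against 30.6 and 15.8 in wild-type. Between groups 0 of the 22 passed edgeR's test, with 3 at an unadjusted p under 0.05, 1 called by DESeq2 and 0 by limma-voom, and the list's median log2 fold change was 0.08. Trp53inp1, a p53 target of the stress response, had 49.2 and 75.1 CPM, against 31.0 and 35.9 in wild-type (log2 fold change 0.89 ± 0.22 SE, adjusted p = 0.139 by edgeR). DESeq2 called Trp53inp1 (adjusted p = 8.0e-04), and edgeR without labelled Hhex-deleted replicate 1 called it and Sesn1. Ccng1, a cyclin-like p53 target, had a log2 fold change of 0.25 ± 0.08 (SE, adjusted p = 0.178 by edgeR).

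**Figure D2:**
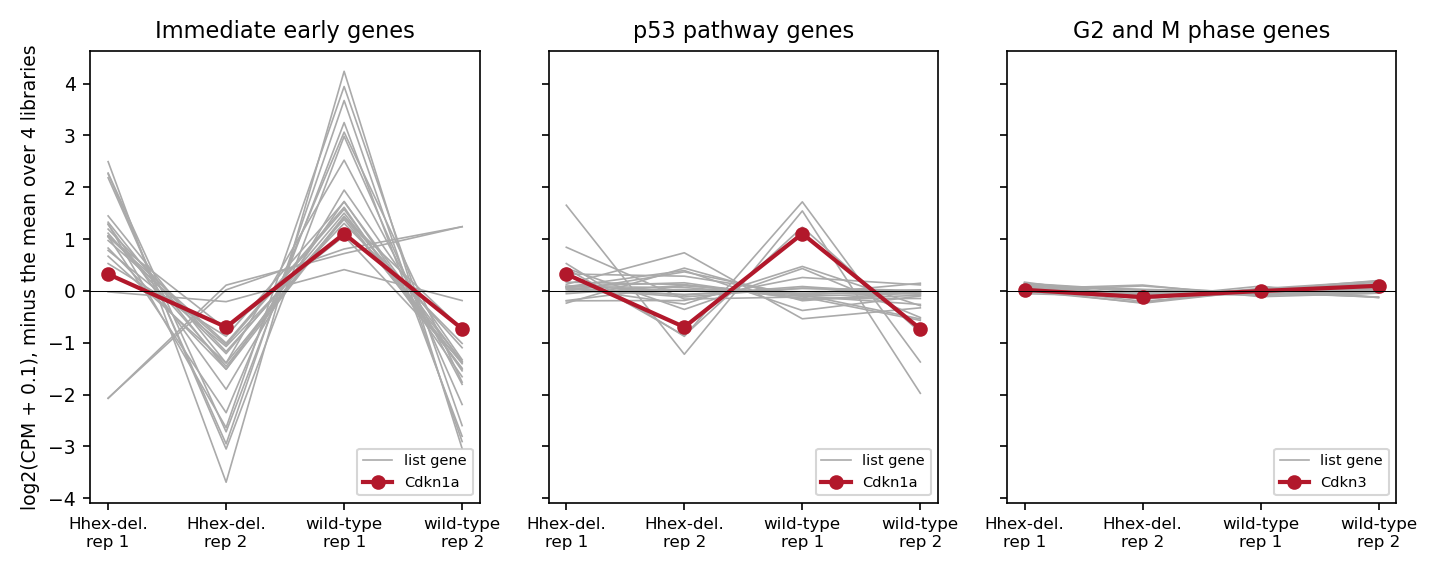
Log2(CPM + 0.1) of each gene minus its mean over the 4 libraries, with Cdkn1a or Cdkn3 in red. Grey lines are 22 immediate early and heat shock genes, 22 p53 pathway genes and 25 G2 and M phase genes. Lines join libraries only to guide the eye. Cdkn1a is high in the libraries numbered 1, as are 20 of the 22 immediate early and heat shock genes. Cdkn3 and the G2 and M phase genes stay close to 0.

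By the smallest root mean square difference of centred log2 CPM over the 4 libraries, the genes most like Cdkn1a were Klf11 (0.078), Spry1 (0.108) and Cxcl10 (0.124). Klf11, a Krüppel-like transcription factor, had 40.5 and 17.6 CPM in labelled Hhex-deleted, against 66.0 and 19.8 in wild-type. Likeness over 4 libraries is a description and carries no test.

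Cdkn1b encodes p27, which is controlled mainly through protein degradation and is known for keeping resting cells out of S phase. It had 87.4 and 80.2 CPM in labelled Hhex-deleted, against 83.8 and 68.0 in wild-type. The values overlapped, with a log2 fold change of 0.14 ± 0.12 (SE, adjusted p = 0.668 by edgeR). The 95% interval ran from 0.907-fold to 1.35-fold, so a change beyond 1.35-fold lies outside it. At 15 genes that degrade, modify or carry p27, including the ubiquitin ligase subunit gene Skp2 and its cofactor gene Cks1b, 0 passed edgeR's test, with 0 at an unadjusted p under 0.05. DESeq2 and limma-voom called 0 of them, and log2 fold changes lay between -0.15 for Cks1b and 0.18 for Ubac1, which encodes a ubiquitin ligase subunit for p27.

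Factors that act on Cip/Kip transcription were also set beside the members. Of 15 Foxo, TGF-beta and Myc pathway genes 0 passed edgeR's test, 1 DESeq2's and 0 limma-voom's, 3 had an unadjusted edgeR p under 0.05, with a median log2 fold change of 0.14. Foxo3, a forkhead factor that activates Cdkn1b, had 73.2 and 74.3 CPM in labelled Hhex-deleted, against 59.9 and 58.3 in wild-type. The groups did not overlap, as in 45.5% of all tested genes. The fitted log2 change was 0.32 ± 0.07 (SE), with an adjusted p of 0.0911 by edgeR and 0.0402 by DESeq2. Foxo1, a related factor, had 20.7 and 27.4 CPM, against 16.1 and 17.6 in wild-type, a log2 fold change of 0.51 ± 0.16 (SE, adjusted p = 0.192 by edgeR).

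Cdkn1c encodes p57, an imprinted inhibitor expressed from the maternal copy. It was the member with the fewest reads, 37 and 94 in labelled Hhex-deleted, against 95 and 125 in wild-type. In CPM these were 1.27 and 3.12, against 3.47 and 4.38 in wild-type. Both libraries labelled Hhex-deleted lay below both wild-type libraries, and replicate 1 lay far below the rest. The log2 fold change was -0.84 ± 0.44 (SE), with a 95% interval of -1.92 to 0.25 and an edgeR adjusted p of 0.462. Its size depended on the labelled Hhex-deleted library kept: it was -0.33 without replicate 1 (adjusted p = 0.6) and -1.62 without replicate 2 (adjusted p = 0.0817). Within labelled Hhex-deleted the level in replicate 1 was 0.407 times that in replicate 2 (exact binomial 95% interval 0.27 to 0.601), and 2.92% of tested genes had a larger gap. Against the wild-type library of the same number the log2 differences were -1.44 for replicate 1 and -0.49 for replicate 2.

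Mature neutrophil markers were also low in labelled Hhex-deleted replicate 1, the library with Xist. The summed level of 7 tested mature neutrophil markers was 101.4 and 467 CPM in labelled Hhex-deleted, against 490 and 1001 in wild-type. This sum has the library order of Cdkn1c, but not every marker has. S100a8 had it, with 50.1 and 174 CPM, against 268 and 462 in wild-type. S100a9 did not, with 22.4 and 174 CPM, against 167 and 389 in wild-type. Nor did Ltf, with 1.54 and 15.8 CPM, against 7.33 and 14.6 in wild-type. Of these 7 markers 1 passed edgeR's test, Mmp9, which was higher (log2 fold change 1.92), and none was without reads. The Mmp9 call was lost when either wild-type library was left out, and was not made on the deposited log2 RPKM values. Of 21 stem cell quiescence genes, Cdkn1c among them, 6 were higher in labelled Hhex-deleted replicate 1 than in replicate 2 (median log2 difference -0.32). In wild-type 11 were (median 0.04). Of 7 LSK sort gate genes 1 was higher in labelled Hhex-deleted replicate 1 (median -0.19), against 5 in wild-type replicate 1 (0.09). Between groups Cd48 was the 1 sort gate gene past edgeR's test, and it was higher (log2 fold change 0.63 ± 0.09 SE, adjusted p = 0.0239). DESeq2 and limma-voom called it too, but edgeR with the replicate number as a block and limma on the deposited values did not. The Cd48 call was also lost when either wild-type library was left out. Of 9 erythroid markers 5 were higher in labelled Hhex-deleted replicate 1 (median 0.27), against 4 in wild-type replicate 1 (-0.16). The part of neutrophils, of these lists, of sex or of this library in the Cdkn1c values was not tested. Among other cell types, 6 of 8 B lineage markers, 5 of 8 mast cell and basophil markers and 3 of 8 monocyte and macrophage markers (C1qa, C1qb and C1qc) were higher and none lower by edgeR with all 4 libraries. The monocyte and macrophage list was mixed, with log2 fold changes of -1.21 for Csf1r, -0.67 for Itgam and -0.45 for Cd68. DESeq2 called Itgam lower (adjusted p = 0.00109), as did edgeR without wild-type replicate 1, and edgeR called Csf1r lower when either labelled Hhex-deleted library was left out. Their summed levels were 109 and 137 CPM against 39.1 and 44.0 in wild-type for B lineage, 1432 and 1258 CPM against 568 and 536 in wild-type for mast cells and basophils, and 145 and 116 CPM against 178 and 203 in wild-type for monocytes and macrophages. No list of these 3 has the library order of Cdkn1a or Cdkn1c.

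Cdkn1c lies in a cluster of imprinted genes on chromosome 7. Its nearest measured neighbours on one side were Slc22a18 and Phlda2, which like Cdkn1c are known to be expressed from the maternal copy, and on the other Kcnq1ot1, the paternally expressed RNA that silences the cluster in cis, and Tssc4. Slc22a18 had 2.60 and 3.12 CPM in labelled Hhex-deleted, against 4.38 and 4.80 in wild-type, a log2 fold change of -0.68 ± 0.23 (SE, adjusted p = 0.218 by edgeR). Phlda2 had 0.685 and 0.962 CPM, against 1.68 and 1.23 in wild-type, with a log2 fold change of -0.81 ± 0.36 (SE, adjusted p = 0.363 by edgeR). Both genes had groups that did not overlap, as 45.5% of all tested genes had, and neither passed the test. Kcnq1ot1 stood at 19.6 and 24.8 CPM, against 21.7 and 19.5 in wild-type (log2 fold change 0.11 ± 0.15 SE), and Tssc4 at a log2 fold change of -0.15 ± 0.17 (SE).

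Of 15 tested genes of this cluster and other imprinted loci 1 was higher and 1 lower, with a median log2 fold change of -0.15. Igf2r, which encodes a receptor that clears the growth factor Igf2 and overlaps the antisense RNA Airn, had 137 and 165 CPM in labelled Hhex-deleted, against 14.96 and 20.9 in wild-type. It rose by a log2 change of 3.07 ± 0.19 (SE, adjusted p = 0.00508 by edgeR), and reads of the overlapping genes cannot be told apart without strand. Meg3, another imprinted gene of the list, had 0.719 and 0.697 CPM, against 2.30 and 3.40 in wild-type (log2 fold change -2.002 ± 0.33 SE, adjusted p = 0.0407 by edgeR). The Meg3 call was lost with limma-voom, with upper quartile scaling, with the replicate number as a block and with any 1 of the 4 libraries left out.

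Most like Cdkn1c over the 4 libraries were Map3k9 (root mean square difference 0.076), Tmem38a (0.159) and Spint1 (0.159). Map3k9, a kinase of the stress-activated pathway, had 2.19 and 5.47 CPM in labelled Hhex-deleted, against 6.49 and 7.07 in wild-type. Of 21 stem cell quiescence genes, Cdkn1c among them, 0 passed edgeR's test, with 6 at an unadjusted p under 0.05 and a median log2 fold change of -0.05, while DESeq2 called 4, Gfi1 and Robo4 lower and Foxo3 and Meis1 higher, and limma-voom called 0. Robo4, a guidance receptor of stem cells and endothelium, had 9.66 and 13.1 CPM, against 20.8 and 21.4 in wild-type (log2 fold change -0.89 ± 0.18 SE, adjusted p = 0.063 by edgeR). It passed with no low-count filter (adjusted p = 0.0373) and, at 0.0305, when labelled Hhex-deleted replicate 2 was left out. Gfi1, a repressor that restrains stem cell proliferation, had 73.2 and 91.8 CPM, against 124 and 176 in wild-type, with a log2 fold change of -0.86 and an edgeR adjusted p of 0.137. By edgeR it passed with the replicate number as a block (adjusted p = 0.0307) and, at 0.0366, when wild-type replicate 1 was left out.

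**Figure D3:**
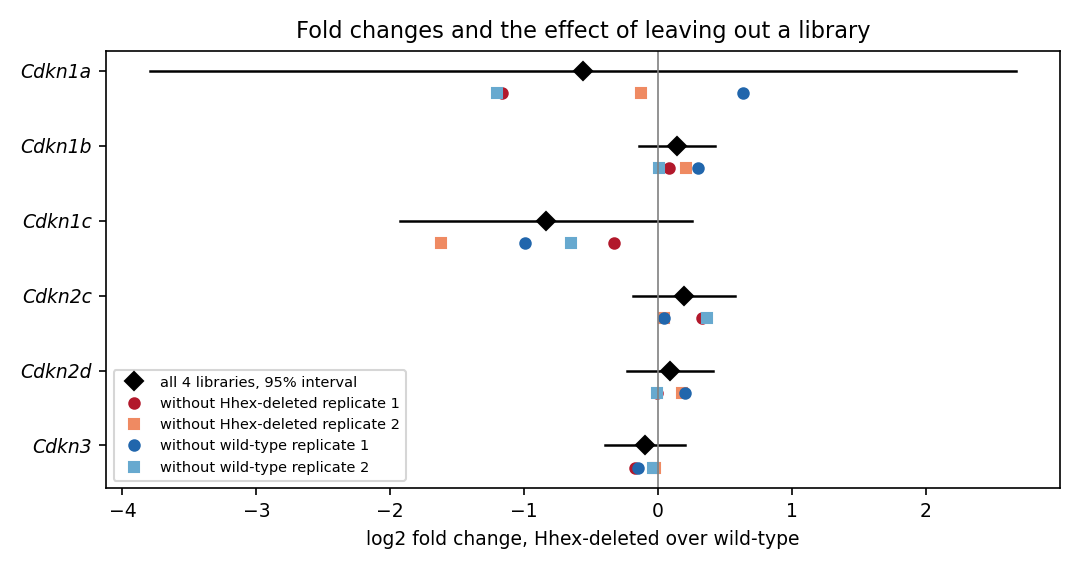
Log2 fold changes, libraries labelled Hhex-deleted over wild-type, of the 6 inhibitors with all 4 libraries (black, with 95% interval) and with each library left out (coloured). All 6 intervals include 0; the points for Cdkn1a run from -1.20 to 0.64 and those for Cdkn1c from -1.62 to -0.33.

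Neither Ink4 member passed the test. Cdkn2c, whose product p18 binds Cdk6 above all, had 23.7 and 29.0 CPM in labelled Hhex-deleted, against 20.6 and 25.4 in wild-type. Replicate 2 was the higher library in both groups, the groups overlapped, and the log2 fold change was 0.19 ± 0.16 (SE, adjusted p = 0.664 by edgeR). The 95% interval ran from 0.879-fold to 1.49-fold. Cdkn2d, which encodes p19Ink4d and not the ARF product of Cdkn2a, had 23.8 and 21.0 CPM, against 22.7 and 19.5 in wild-type. Here replicate 1 was the higher in both groups, with a log2 fold change of 0.09 ± 0.13 (SE, adjusted p = 0.845 by edgeR) and a 95% interval from 0.85-fold to 1.33-fold. That sign was lost when wild-type replicate 2 was left out (-0.011), and when replicate 1 of labelled Hhex-deleted was (-0.0071).

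Cdkn3 differed little between libraries. It had 18.5 and 16.8 CPM in labelled Hhex-deleted, against 18.2 and 19.6 in wild-type, a log2 fold change of -0.10 ± 0.12 (SE, adjusted p = 0.808 by edgeR) with a 95% interval from 0.759-fold to 1.15-fold. Its transcript is known to peak with those of mitosis. Of 25 G2 and M phase genes 0 passed edgeR's test, DESeq2's or limma-voom's, and none had an unadjusted edgeR p under 0.05. Log2 fold changes lay between -0.23 for Aurkb, the kinase of the chromosomal passenger complex, and 0.16 for Cenpf, a kinetochore protein gene, with a median of -0.03. In replicate 1 of labelled Hhex-deleted 23 of the 25 were higher than in replicate 2, with a median log2 difference of 0.14, and Cdkn3 was higher there by 0.14 too. In wild-type 3 of the 25 were higher in replicate 1, with a median of -0.04, and Cdkn3 stood at -0.10. The Cdkn3 level in replicate 1 was 1.10 times that in replicate 2 in labelled Hhex-deleted (exact binomial 95% interval 0.9745 to 1.247). In wild-type it was 0.932 times (0.825 to 1.054). Both intervals include equal levels, so neither Cdkn3 gap went beyond counting error. Larger gaps were found in 54.5% of tested genes in labelled Hhex-deleted and in 57.1% in wild-type. Of 20 E2F, retinoblastoma family and DREAM complex genes 0 passed edgeR's test, with 1 at an unadjusted p under 0.05. Mybl2, a factor that activates mitotic genes, had the lowest unadjusted p there, with a log2 fold change of -0.34 ± 0.10 (SE, adjusted p = 0.151 by edgeR), followed by Tfdp1, the partner of E2F factors, at -0.18 ± 0.09 (SE, adjusted p = 0.406 by edgeR). DESeq2 and limma-voom called 0 of the 20.

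Summed over the family, Cip/Kip transcripts reached 53.1 and 42.9 RPKM in labelled Hhex-deleted, against 64.3 and 38.2 RPKM in wild-type. The groups overlapped, and an exact two-sided permutation test over libraries gave p = 1, where 2 against 2 libraries allow no p below 0.333. Cdkn1b made up 68.4% and 77.8% of this sum in labelled Hhex-deleted, against 54.1% and 73.9% in wild-type, and Cdkn1a 30.4% and 18.4%, against 43.1% and 20.2% in wild-type. Cdkn1c made up 1.23% and 3.74%, against 2.77% and 5.89% in wild-type. Cdkn2c and Cdkn2d together reached 40.2 and 42.7 RPKM in labelled Hhex-deleted, against 36.5 and 38.4 RPKM in wild-type. Both libraries labelled Hhex-deleted were above both wild-type libraries, where 45.5% of all tested genes had groups that did not overlap. The exact permutation test gave p = 0.333, the smallest it allows, so it cannot show a difference.

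The other Ink4 genes, Cdkn2a and Cdkn2b, stood together at 1.35 and 1.34 RPKM in labelled Hhex-deleted, against 0.0583 and 0.0616 RPKM in wild-type. These were 3.25% and 3.03% of the summed RPKM of the 4 Ink4 genes, against 0.16% in each wild-type library. Both passed edgeR's test (adjusted p = 0.0239 and 0.04), and fitted values rest on at most 2 wild-type reads per library.

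Of the cyclins and kinases that the inhibitors bind, 1 of 12 tested genes passed, Ccnd1, a D-type cyclin, which was lower at 0.767 and 1.49 RPKM in labelled Hhex-deleted, against 8.04 and 8.42 RPKM in wild-type (log2 fold change -2.87 ± 0.32 SE, adjusted p = 0.0226 by edgeR). The call was lost without wild-type replicate 1 or 2 and on the deposited log2 RPKM values. The other D-type cyclins were far more abundant: Ccnd3 had 83.6 and 79.5 RPKM, against 75.0 and 84.0 RPKM in wild-type, and Ccnd2 31.7 and 44.4 RPKM, against 36.4 and 39.2 RPKM in wild-type. Summed Cdk4 and Cdk6 reached 424 and 384 RPKM, against 424 and 408 RPKM in wild-type. Cdkn2c and Cdkn2d thus stood at 0.0948 and 0.111 of the level of Cdk4 and Cdk6 in labelled Hhex-deleted. In wild-type they stood at 0.0861 and 0.0941. The groups were apart only narrowly, at 0.0948 against 0.0941. The exact two-sided permutation test gave p = 0.333, the lowest that 2 against 2 libraries allow, so it cannot show a difference. The ratio of Cip/Kip to D-type cyclin transcripts was 0.457 and 0.342, against 0.538 and 0.29 in wild-type, values that overlapped.

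**Figure D4:**
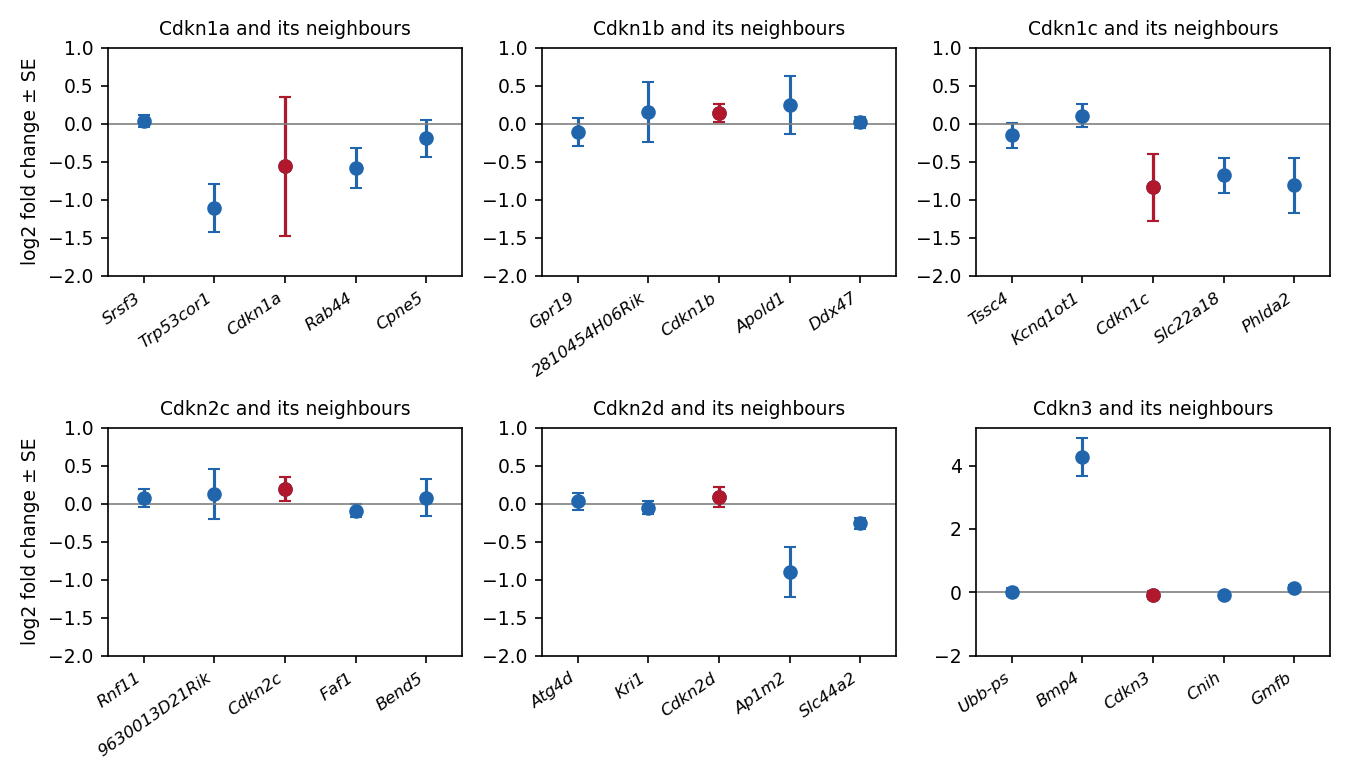
Log2 fold change ± SE, libraries labelled Hhex-deleted over wild-type, of each inhibitor (red) and the nearest 2 tested genes on each side in the RefSeq order (blue); the Cdkn3 panel has a wider axis. Bmp4, next to Cdkn3, is the neighbour that passed the test, at 4.26, while Cdkn3 stands at -0.10.

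Neighbours of the other members were also compared, 24 genes in all around the 6 members. Bmp4, a growth factor gene beside Cdkn3 on chromosome 14, was the neighbour past the test, with 3.91 and 1.76 CPM in labelled Hhex-deleted, against 0.182 and 0.105 in wild-type (log2 fold change 4.26 ± 0.59 SE, adjusted p = 0.0253 by edgeR). The next gene on the other side, Cnih, stood at a log2 fold change of -0.10. Beside Cdkn1a on chromosome 17, Trp53cor1, a long noncoding RNA induced by p53, had 1.10 and 1.63 CPM, against 2.59 and 3.29 in wild-type (log2 fold change -1.11 ± 0.32 SE, adjusted p = 0.154 by edgeR), and unlike Cdkn1a it was lower in replicate 1 of each group. Around Cdkn1b on chromosome 6 the log2 fold changes of 4 neighbours ran from -0.11 for Gpr19 to 0.24 for Apold1, and around Cdkn2c on chromosome 4 from -0.09 for Faf1 to 0.12 for 9630013D21Rik. Around Cdkn2d on chromosome 9, Ap1m2, an adaptor subunit gene of vesicle traffic, stood at -0.90 ± 0.33 (SE, adjusted p = 0.257 by edgeR) and the transporter gene Slc44a2 at -0.26 ± 0.07 (SE, adjusted p = 0.151 by edgeR).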

How the data were processed

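RNA of sorted LSK cells was sequenced after TruSeq library preparation, per the labels' protocols. The authors deposited raw read counts per Entrez gene with gene lengths and, per library, log2 RPKM values. Per the submitters' processing notes, Subread, featureCounts, limma and mm9 were used. For versions, strand setting and treatment of shared reads, the entry is: not given in the sources used here. Sorted deposited log2 RPKM values, with gene length added back, lay a median of 0.000809 apart between libraries, so they had been brought near one distribution, and served as an alternative only.

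The counts entered edgeR 4.0.16 under R 4.3.3, where filterByExpr (minimum count 10, minimum total 15) left 14912 genes, scaled by TMM, with group as the single term and robust dispersion (biological coefficient of variation 16.3%). SE is the fold change divided by the square root of F. RPKM used the deposited gene lengths. DESeq2 1.42.0 and limma 3.58.1 were alternatives. The tests were run on simulated counts drawn separately for each library. These held no effect of replicate number, so the check does not cover such an effect. Symbols came from the deposited tables, then from RefSeq (24397 identifiers matched), whose GRCm38 order gave neighbours.

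Libraries were grouped and numbered by title. Genes named are the 6 members, Cdkn2a and Cdkn2b, list members past the test (at most 4, otherwise the 2 lowest unadjusted p), the nearest 2 tested neighbours on each side, and the 3 genes with a mean of at least 1 CPM most like a member spanning more than 1 in log2 CPM. Other genes were named after their values were seen. Members, lists and tests were chosen with earlier results of these data known. All 243 list entries were matched.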

Additional observations from a re-analysis of the deposited data

How the results depend on the processing

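No member passed the test under any of 7 other settings or with any library left out, by edgeR, DESeq2, limma-voom or limma on deposited log2 RPKM (0 of 6 each time). With a library left out, log2 fold changes ran from -1.20 to 0.64 for Cdkn1a (0.64 without wild-type replicate 1) and from -0.011 to 0.20 for Cdkn2d (-0.0071 when labelled Hhex-deleted replicate 1 was left out, -0.011 without wild-type replicate 2). The other members kept their sign, from 0.0087 to 0.30 for Cdkn1b, -1.62 to -0.33 for Cdkn1c, 0.05 to 0.36 for Cdkn2c and -0.17 to -0.02 for Cdkn3. In the 7 other settings all 6 kept their sign.

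Counts of called genes moved in some lists. Cyclins and kinases had 0 on deposited log2 RPKM and 0 to 1 with a library left out. DESeq2 called 1 Foxo and TGF-beta gene, 1 p53 pathway gene and 4 quiescence genes. The p53 list had 0 to 2 with a library left out. Imprinted genes had 1 by limma-voom, upper quartile scaling, deposited log2 RPKM (which lacks Meg3) and the replicate block, and 1 to 2 with a library left out. Quiescence genes had 1 with no low-count filter, 1 with the replicate block and 0 to 2 with a library left out. Immediate early genes had 2 with the replicate block, Fos and Fosb, both lower, and 0 to 1 with a library left out. The log2 ratio of summed Cip/Kip RPKM was -0.10 and ran from -0.42 to 0.33 with a library left out, changing sign without wild-type replicate 1 (0.33) and without labelled Hhex-deleted replicate 2 (0.050). Over all genes DESeq2 called 988, limma on deposited log2 RPKM 40 and edgeR 124 to 597 with a library left out, against 388. The causes of these moves were not tested.

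Replicate numbers are shared between groups, but the labels do not say what they mark. With 2 pairs, deviations from group means of same-numbered libraries correlated at 0.312. With the replicate number as a block edgeR called 315 genes (388 without it) and 0 members. The Cdkn1a log2 fold change was then -0.40 (adjusted p = 0.415) and that of Cdkn1c -0.93 (adjusted p = 0.224), with 1 member, Cdkn1c, at an unadjusted p under 0.05. With 2 libraries a group, the Cdkn1a interval is too wide to exclude a large change in either direction. The Cdkn1c interval, 0.264-fold to 1.19-fold in the main fit, does not exclude a large decrease, and Cdkn1c also rests on few reads.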

Other observations

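The heat shock genes Hspa1a and Hspa1b, which encode inducible chaperones, did not follow the immediate early genes they were listed with. Hspa1a had 3.53 and 15.4 CPM in libraries labelled Hhex-deleted, against 26.6 and 35.9 in wild-type, and Hspa1b had 15.9 and 72.6 CPM, against 111 and 159 in wild-type. Both were lower in replicate 1 than in replicate 2 of each group, where 20 of the 22 listed genes were higher, and their reads can be shared between these near copies. With all 4 libraries the edgeR adjusted p was 0.525 for Hspa1a and 0.638 for Hspa1b. The log2 fold change of Hspa1a moved to -3.14 when labelled Hhex-deleted replicate 2 was left out. Nr4a1, a nuclear receptor gene among the immediate early genes, had 213 and 2.82 CPM in libraries labelled Hhex-deleted, against 712 and 4.48 in wild-type, a far wider gap between replicates than that of Cdkn1a.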
